A study of Homo sapiens with 47 samples.

Results

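When dCas9-VP16(10x) was directed to the enhancers of gRNA Pool 1, histone H3 lysine 27 acetylation (H3K27ac) was higher at MMP17-2 and CISH-1. Against gRNAs for the IL1RN promoter, the log2 change was 3.53 and 4.98 (adjusted p = 0.0426 for both by limma). It was 2.49 and 3.81 without Pool 1 replicate 2, whose peak names carry the letter used for p300. Neither change passed the threshold with only dCas9-VP16(10x) libraries in the fit (adjusted p = 0.0773 and 0.0631 by limma). RNA polymerase II (RNAPII) differed most at CISH-1 among the 4 sites. No RNAPII change passed the threshold (adjusted p = 0.0760 at CISH-1 by limma). The comparison of Pool 1 with dCas9-VP16(10x) directed to the IL1RN promoter comprised 8 of the 47 samples of the series, chosen by antibody, construct and gRNA pool as the labels give them. They were 2 Pool 1 and 2 IL1RN libraries of H3K27ac, and 2 and 2 of RNAPII. All came from Ishikawa cells, an endometrial carcinoma line, which were kept in hormone-depleted media for at least 5 days so that the estrogen receptor (ER) was not activated, and were then transfected with a plasmid for the dCas9 fusion and plasmids for the gRNAs. The fusion joins a Cas9 without nuclease activity to 10 copies of a VP16 domain, and both groups carried it, so that they differed in the gRNAs. Antibiotic selection was used to keep transfected cells, and signal per cell and the share of cells with both plasmids cannot be told apart in these data.

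VP16 is a strong viral activation domain that brings coactivators to the DNA where it is placed. H3K27ac is deposited mainly by p300 and CBP and marks active enhancers and promoters, while RNAPII is found at promoters, over transcribed genes and at active enhancers. An ER bound site (ERBS) is a stretch of DNA that ER occupies after estrogen treatment, often through an estrogen response element, and the 12 ERBSs of the study lie near MMP17, CISH, FHL2 and HES2. MMP17 encodes a membrane-anchored matrix metalloproteinase, CISH an inhibitor of cytokine signalling, FHL2 a LIM domain protein that acts as a transcriptional cofactor, and HES2 a basic helix-loop-helix transcription factor. IL1RN encodes the interleukin-1 receptor antagonist and is a common test promoter for synthetic activators.

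The 4 sites considered as targets of Pool 1 were MMP17-2, CISH-1, FHL2-3 and HES2-2. The labels and the methods list FHL2-2 and HES2-3 for this pool, and FHL2-3 and HES2-2 were taken in their place because the H3K27ac signal of these libraries, examined earlier, was raised there. H3K27ac values at FHL2-3 and HES2-2 are therefore a description. They enter the fit over all regions and 2 of the exact tests, but nothing is read from those tests there. RNAPII had no part in that choice. The sequence that the 4 gRNAs of each site span is printed here because it fixes where the fusion was placed. Each is the plus strand of hg19, 5′ to 3′, and capitals mark the bases matched by a gRNA together with its NGG motif (the PAM). The spans are chr12:132288557-132288683 for MMP17-2, chr3:50642565-50642777 for CISH-1, chr2:106139178-106139465 for FHL2-3 and chr1:6497141-6497418 for HES2-2.
MMP17-2: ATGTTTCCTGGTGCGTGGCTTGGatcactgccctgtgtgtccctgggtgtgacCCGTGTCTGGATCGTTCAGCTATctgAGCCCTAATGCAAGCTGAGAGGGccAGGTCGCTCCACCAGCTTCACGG
CISH-1: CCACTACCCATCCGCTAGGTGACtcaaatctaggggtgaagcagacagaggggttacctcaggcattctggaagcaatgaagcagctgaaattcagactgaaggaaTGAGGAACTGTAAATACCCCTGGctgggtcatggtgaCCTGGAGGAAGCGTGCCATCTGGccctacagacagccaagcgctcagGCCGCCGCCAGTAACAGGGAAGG
FHL2-3: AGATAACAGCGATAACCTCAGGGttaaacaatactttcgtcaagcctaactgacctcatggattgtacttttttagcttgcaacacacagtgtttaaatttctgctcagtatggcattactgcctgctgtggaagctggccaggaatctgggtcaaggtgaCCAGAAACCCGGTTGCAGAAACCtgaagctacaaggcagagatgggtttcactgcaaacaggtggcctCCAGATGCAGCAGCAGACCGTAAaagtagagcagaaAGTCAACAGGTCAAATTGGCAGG
HES2-2: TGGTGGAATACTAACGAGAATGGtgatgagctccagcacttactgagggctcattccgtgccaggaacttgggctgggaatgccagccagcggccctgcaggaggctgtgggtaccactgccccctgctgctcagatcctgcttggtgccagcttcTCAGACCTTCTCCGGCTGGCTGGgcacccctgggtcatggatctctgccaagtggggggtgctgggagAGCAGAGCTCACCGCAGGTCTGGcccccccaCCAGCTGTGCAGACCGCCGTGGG
Each of the 16 gRNAs had 1 exact copy with a PAM in the genome.

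In the GENCODE annotation on hg19, MMP17-2 was intergenic, 24.3 kb upstream of the nearest MMP17 start and 7.96 kb from a start of SFSWAP, a splicing regulator. CISH-1 was intergenic, 6.52 kb downstream of a CISH start and 6.28 kb from a start of MAPKAPK3, a kinase of the p38 pathway. FHL2-3 was intergenic, 84.4 kb upstream of FHL2, the only coding gene with a start within 100 kb. HES2-2 was in an intron of ESPN, which encodes an actin-bundling protein, 81 bp from an ESPN start and 12.5 kb upstream of HES2.

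The estrogen response element, searched as GGTCA and TGACC with any 3 bases between them, which reads the same on both strands, was present without mismatch in 2 of the 4 target regions. In CISH-1 it read ggtcatggtgacc and its centre was 32 bp from the middle of the gRNA span, with its last bases under a gRNA. In FHL2-3 it read ggtcaaggtgacc and was 13 bp from the middle, also partly under a gRNA. The closest match had 3 mismatches in MMP17-2 and 2 in HES2-2. An exact element was in 2 of 12 ERBS regions (16.7%), in none of the 6 adjacent regions or 4 target promoters, and in 48 of 20136 windows of the same length at coding gene starts (0.238%). The matches describe the letters of these windows and no binding was measured.

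The signal in the deposited table is the number of reads in a 2000-bp region, divided by total read depth and by the average depth within shared peaks of the antibody, so that it has no unit and is compared within an antibody. Taken as whole multiples of the smallest step of a library (tolerance 0.02 of a step), values corresponded to 2278 to 6345 reads over the 23 regions in the 4 H3K27ac libraries and 2151 to 2820 in the 4 RNAPII libraries. The table could not be shown to hold whole reads, so these are estimates and no count test was run on them. The 2 RNAPII IL1RN libraries agreed within sampling noise on these estimated reads (chi-square 15.9 over 21 degrees of freedom, p = 0.773), as did 1 other of the 20 replicate pairs, and were counted as 1 sample by their mean in tests. The peaks of H3K27ac Pool 1 replicate 2 carry a name with the letter used for p300 elsewhere, although its title gives VP16, so the calls and ratios that lead the H3K27ac results are also given without it. A number in the peak names, whose meaning the labels do not give, is shared by replicate 1 of both H3K27ac groups, and another by RNAPII Pool 1 replicate 1 and both RNAPII IL1RN libraries, whereas the other libraries carry no number. Peaks of both antibodies were present in all 4 lists at the starts of 10 of 10 epithelial markers (KRT8, KRT18, EPCAM, PAX8 and ESR1 among them) and at none of 4 leukocyte markers, the 2 endothelial markers that could be matched or the liver marker ALB. Of 5 stromal markers, COL1A1 had such peaks. Over all 20149 coding genes, 52.1% had an H3K27ac peak at a start in both Pool 1 lists and 43.9% in both IL1RN lists. For RNAPII the shares were 57.8% and 61.0%.

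The control group was checked first at the IL1RN promoter (chr2:113874426-113876426), the target of its gRNAs. Its H3K27ac signal was 0.408 and 4.00 in the IL1RN libraries and 0.0442 and 0.172 in the Pool 1 libraries. Both IL1RN libraries were above both Pool 1 libraries, and this was the only one of 23 regions with that order for H3K27ac (4.35%). The log2 change of Pool 1 against IL1RN was -3.80 (SE 1.78, adjusted p = 0.285 by limma), and -4.73 without Pool 1 replicate 2 (adjusted p = 0.467 by limma). Between libraries of the same replicate number the log2 difference was -3.09 and -4.51, and the change passed the threshold with the number in the peak names as a block (adjusted p = 0.000809 by limma) and with the replicate block in the 4 libraries (adjusted p = 1.21e-07 by limma). RNAPII signal there was 0.263 and 0.306 with IL1RN gRNAs against 0.135 and 0.124 with Pool 1 gRNAs, with a log2 change of -1.12 (SE 0.984, adjusted p = 0.967 by limma). An H3K27ac peak overlapped the promoter in IL1RN replicate 2 only, and no RNAPII list of the 4 had a peak there.

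H3K27ac at MMP17-2 rose with Pool 1 gRNAs. The signal was 0.336 and 1.44 in the Pool 1 libraries, from 76 and 402 reads, and 0.0188 and 0.156 in the IL1RN libraries, from 3 and 38 reads. Both Pool 1 libraries were above both control libraries, although the Pool 1 replicates were themselves far apart. The ratio of means was 10.2, or 3.85 with Pool 1 replicate 1 alone, and the log2 change was 3.53 (SE 1.03, adjusted p = 0.0426 by limma). CISH-1 showed the largest change of the 23 regions. Its signal was 0.570 and 2.88 with Pool 1 gRNAs (129 and 803 reads) and 0.00628 and 0.156 with IL1RN gRNAs (1 and 38 reads). The groups did not overlap, the ratio of means was 21.3, or 7.03 with Pool 1 replicate 1 alone, and the log2 change was 4.98 (SE 1.36, adjusted p = 0.0426 by limma).

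These were the 2 regions of 23 called higher for H3K27ac (8.70%), and none was called lower (0%), whereas 3 were higher, FHL2-3 included, and 1 lower at an unadjusted p under 0.05. Neither call held without Pool 1 replicate 2, where the log2 change was 2.49 at MMP17-2 and 3.81 at CISH-1 (adjusted p = 0.467 for both by limma), or without IL1RN replicate 1, where it was 2.13 and 3.01 (adjusted p = 0.585 for both by limma). The call at MMP17-2 was also lost with only the 4 libraries in the fit (adjusted p = 0.0571 by limma), where the count of 2 was made up by FHL2-3. It was lost too with all other dCas9-VP16(10x) libraries as control (log2 change 2.38, adjusted p = 0.0806 by limma). Both calls held with replicate number as a block over all 20 libraries (adjusted p = 0.00477 at MMP17-2 and 0.00389 at CISH-1 by limma). Replicate numbers shared deviations between Pool 1 and IL1RN (r = 0.94), but not between Pool 1 and the adjacent pool (r = -0.54). With 2 libraries against 2, an exact permutation test cannot go below p = 0.33, and p-values measure the spread between libraries, which nothing in the labels ties to separate transfections. The direction was the same in each replicate pair, and between the libraries that share a number in their peak names, those of replicate 1, the log2 difference was 3.89 at MMP17-2 and 5.78 at CISH-1, against 3.18 and 4.17 for the libraries without a number.

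FHL2-3 and HES2-2 were chosen because H3K27ac was raised there, so their direction was set by that choice and is only described. H3K27ac at FHL2-3 was 0.411 and 1.22 with Pool 1 gRNAs (93 and 339 reads) and 0.0188 and 0.111 with IL1RN gRNAs (3 and 27 reads), which is a ratio of means of 12.6 with no overlap, or 6.35 with Pool 1 replicate 1 alone. At HES2-2 it was 0.442 and 1.41 against 0.107 and 0.635, and Pool 1 replicate 1 was below IL1RN replicate 2, so the groups overlapped. The ratio of means was 2.50, or 1.19 with Pool 1 replicate 1 alone, and within replicate numbers the log2 difference was 2.01 and 1.15. The sites that the labels list differed little from the control libraries. FHL2-2 was at 0.0530 and 0.222 against 0.0314 and 0.197, and HES2-3 at 5.33 and 2.12 against 5.74 and 2.15.

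Both Pool 1 libraries were above both IL1RN libraries for H3K27ac in 5 of 23 regions (21.7%), which were MMP17-2, CISH-1, FHL2-3, MMP17-1 and MMP17-3. MMP17-1, an ERBS of another pool that is close to MMP17-2, was at 0.640 and 0.847 with Pool 1 gRNAs and at 0.138 and 0.357 with IL1RN gRNAs, with a log2 change of 1.71 (SE 1.08, adjusted p = 0.517 by limma). The Pool 1 values at MMP17-1 were also above those of the 6 dCas9-VP16(10x) libraries compared there that did not target it, which reached 0.602. MMP17-3 separated by a narrow margin, at 0.698 and 0.753 against 0.314 and 0.693. The median log2 change was 3.66 over the 4 sites, a value partly fixed by the choice of FHL2-3 and HES2-2 on this signal, 0.67 over the 8 other ERBSs, 0.28 over the 6 adjacent regions and 0.23 over the 4 target promoters, beside 0.61 over all 23 regions.

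**Figure D1:**
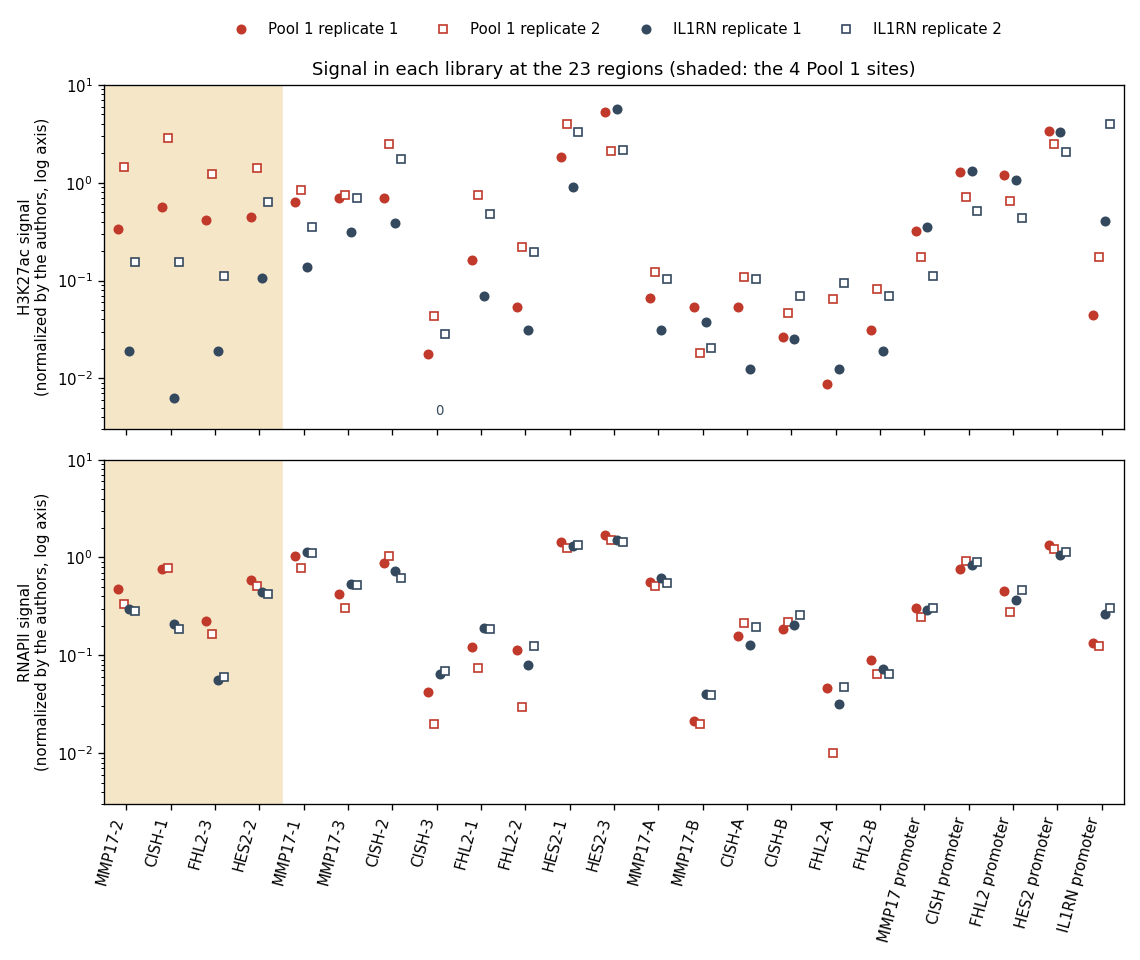
Normalized signal (log axis, no unit) of each library at the 23 regions, H3K27ac above and RNAPII below, with Pool 1 libraries in red, IL1RN libraries in blue, circles for replicate 1 and open squares for replicate 2. In the shaded sites the H3K27ac signal of Pool 1 was 0.336 or more in every library, while 1 value, IL1RN replicate 1 at CISH-3, was listed at 0 and is written as 0.

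RNAPII differed most at CISH-1. The signal was 0.771 and 0.778 in the Pool 1 libraries and 0.211 and 0.186 in the IL1RN libraries, so that the replicates were close together and the groups far apart. The ratio of means was 3.91 and the log2 change 1.94 (SE 0.555, adjusted p = 0.0760 by limma), which did not pass the threshold with the IL1RN pair as 1 sample. It passed when the pair was kept as 2 libraries (adjusted p = 0.00707 by limma). FHL2-3 was at 0.223 and 0.164 against 0.0557 and 0.0604, a ratio of means of 3.33, with a log2 change of 1.65 (SE 0.701, adjusted p = 0.377 by limma). MMP17-2, which had an H3K27ac ratio of 10.2, was at 0.480 and 0.337 against 0.298 and 0.285 for RNAPII, and the log2 change was 0.46 (SE 0.714, adjusted p = 0.967 by limma). HES2-2 was at 0.585 and 0.510 against 0.442 and 0.423, with a log2 change of 0.34 (SE 0.623, adjusted p = 0.967 by limma).

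No region passed the threshold for RNAPII in either direction (0% of 23 higher and 0% lower), and CISH-1 and FHL2-3 were the 2 higher at an unadjusted p under 0.05. The order of libraries was the same at each site, in that both Pool 1 libraries were above both IL1RN libraries at 4 of 4, in a background of 7 of 23 regions (30.4%), the others being CISH-2, HES2-3 and the HES2 promoter. The reverse order was seen in 6 of 23 (26.1%). The median log2 change was 1.06 over the 4 sites and -0.11 over all regions. RNAPII at FHL2-2, which the labels list, was 0.114 and 0.0297 against 0.0796 and 0.125, so the groups overlapped, and at HES2-3 it was 1.69 and 1.53 against 1.496 and 1.45. Between Pool 1 replicate 1 and the controls, which share a number in their peak names, the log2 difference was 1.94 at CISH-1, 1.87 at FHL2-3, 0.71 at MMP17-2 and 0.43 at HES2-2. For Pool 1 replicate 2 it was 1.95, 1.43, 0.21 and 0.24.

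**Figure D2:**
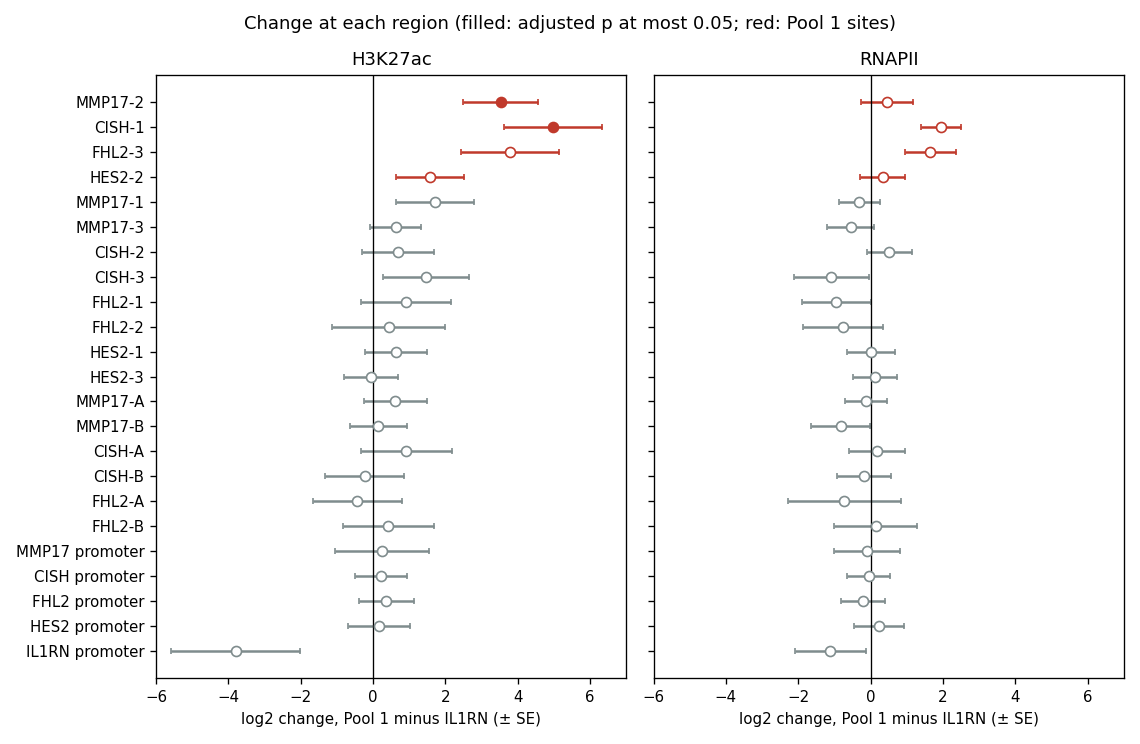
Log2 change of Pool 1 against IL1RN (x axis) with its standard error at each of the 23 regions, H3K27ac on the left and RNAPII on the right. The 4 Pool 1 sites are red, and filled points, at MMP17-2 and CISH-1 for H3K27ac, have an adjusted p of at most 0.05 by limma. The changes of H3K27ac at FHL2-3 and HES2-2 are a description, since that signal had a part in choosing them.

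The promoters of the target genes did not separate between the groups for H3K27ac. The MMP17 promoter was at 0.322 and 0.172 with Pool 1 gRNAs and at 0.351 and 0.111 with IL1RN gRNAs. The CISH promoter was at 1.30 and 0.710 against 1.32 and 0.512, the FHL2 promoter at 1.21 and 0.646 against 1.07 and 0.438, and the HES2 promoter at 3.38 and 2.47 against 3.28 and 2.05. In each of the 4, replicate 1 was above replicate 2 in both groups. Log2 changes for H3K27ac were 0.15 to 0.37 with standard errors of 0.719 to 1.29. For RNAPII the HES2 promoter was at 1.33 and 1.23 against 1.05 and 1.14, without overlap, but its log2 change of 0.22 (SE 0.693, adjusted p = 0.967 by limma) was smaller than its standard error. The other 3 promoters overlapped, with RNAPII log2 changes of -0.22 to -0.06.

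The 4 sites were next compared with every dCas9-VP16(10x) library with other gRNAs, which were 8 libraries for H3K27ac and 7 for RNAPII with the IL1RN pair as 1. The H3K27ac library of the adjacent pool, replicate 1, also carries IL1RN gRNAs in its label. At CISH-1 the other libraries ranged from 0.00628 to 0.339 (median 0.154), and both Pool 1 libraries were above all of them (two-sided exact permutation test, p = 0.0444, the smallest that 45 splits can give). At MMP17-2 the others ranged from 0.0188 to 0.357 (median 0.143), and Pool 1 replicate 1, at 0.336, was below Pool 2 replicate 2 (two-sided exact permutation test, p = 0.0889). For RNAPII, both Pool 1 libraries were above all others at 4 of 4 sites, each with p = 0.0556 by a two-sided exact permutation test, the smallest that 36 splits can give. This order was also seen at CISH-2, a Pool 2 site, so it was not particular to the 4 sites. At CISH-2 the Pool 1 libraries were at 0.884 and 1.05, and the dCas9-VP16(10x) libraries compared there that did not target it reached 0.781. The highest other library was at 0.463 for CISH-1 and at 0.0993 for FHL2-3, both with Pool 2 gRNAs, and at 0.311 for MMP17-2 and 0.505 for HES2-2, both with the adjacent pool. Of 16 such tests, which included the promoters and H3K27ac at FHL2-3 and HES2-2, none had an adjusted p under 0.148.

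**Figure D3:**
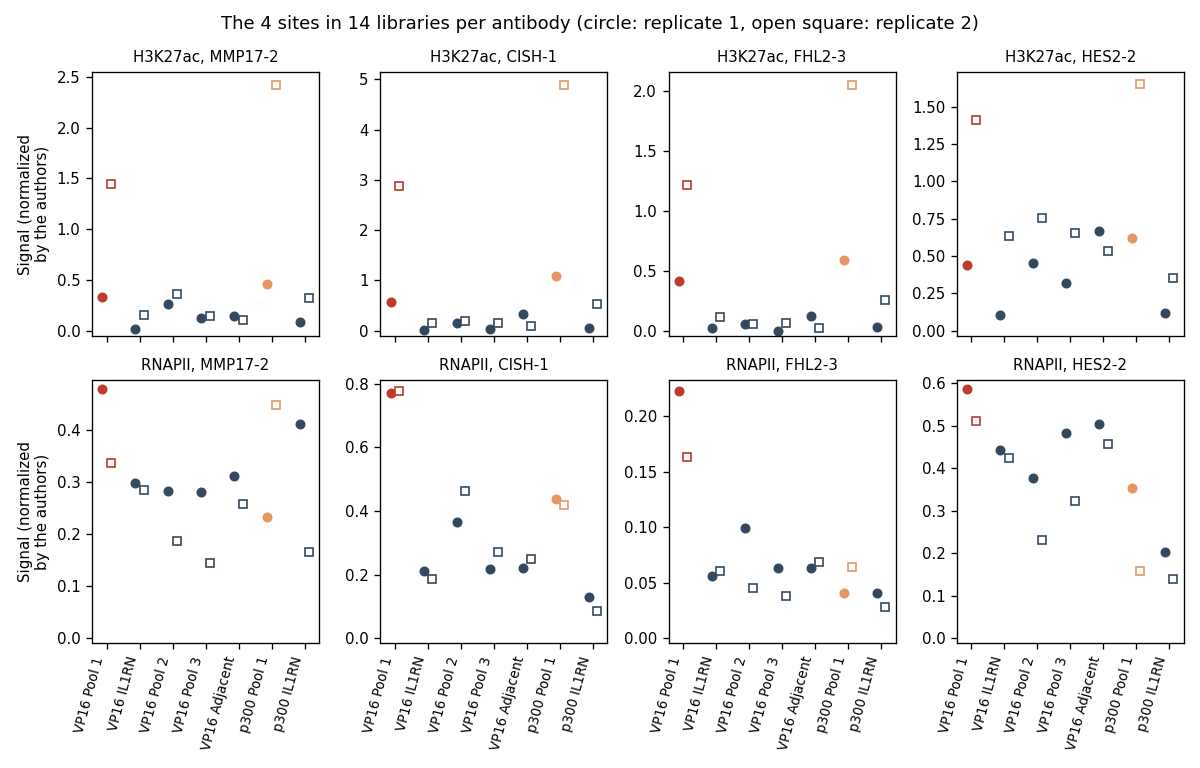
Normalized signal (linear axis, no unit) at the 4 sites in 14 libraries of each antibody, with VP16 Pool 1 in red, p300 Pool 1 in orange, the other libraries in blue, circles for replicate 1 and open squares for replicate 2. The RNAPII values of VP16 Pool 1 at CISH-1, 0.771 and 0.778, stood above the highest other dCas9-VP16(10x) value of 0.463.

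Peak lists, which the authors called in each library, gave a second view of the same reads. H3K27ac peaks overlapped all 4 sites in both Pool 1 lists and none of the 4 in either IL1RN list, a pattern found in 5 of 23 regions (21.7%) with MMP17-1 as the other. Since FHL2-3 and HES2-2 were chosen on H3K27ac, the count free of that choice is that of the labels' list, in which 2 of 4 had the pattern, MMP17-2 and CISH-1. Fold enrichment over background was 7.35 and 21.2 at MMP17-2 and 11.5 and 20.4 at CISH-1. It was 7.94 and 8.41 at FHL2-3 and 13.6 and 20.9 at HES2-2. An IL1RN replicate 2 peak lay within 1 kb of HES2-2 but outside the region. RNAPII peaks had this pattern at MMP17-2 and CISH-1, which were the 2 of 23 regions that did (8.70%). Their RNAPII fold enrichment was 15.3 and 8.11 at MMP17-2 and 22.97 and 19.0 at CISH-1. FHL2-3 had an RNAPII peak in Pool 1 replicate 1 only (fold enrichment 7.41). HES2-2 had RNAPII peaks in all 4 lists, at 9.22 and 10.3 with Pool 1 gRNAs and at 12.5 and 6.55 with IL1RN gRNAs, so its RNAPII peak was present in the control cells.

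RNAPII peaks at the sites were narrower and closer to the gRNAs than H3K27ac peaks. Over the 7 RNAPII peaks of Pool 1 the summit was 15 to 186 bp from the middle of the gRNA span (median 34) and the width 143 to 554 bp. Over the 8 H3K27ac peaks it was 54 to 378 bp (median 141.5) and the width 356 to 1684 bp. The whole Pool 1 lists also differed in width, with medians of 321 and 478 bp for RNAPII and 705 and 508 bp for H3K27ac. RNAPII peaks at HES2-2 were present in both IL1RN lists too, with summits at -23 and 74 bp, so their place does not depend on Pool 1 gRNAs. At HES2-2, which lies within ESPN, both H3K27ac summits were at higher coordinates than the middle, by 378 and 273 bp. In 3 dCas9-VP16(10x) lists with other gRNAs the summit was at 259 to 266 bp, so this place was not particular to Pool 1. The fold enrichment in adjacent replicate 2, 28.7, was above that of both Pool 1 lists. In other libraries, the CISH-1 peaks of both antibodies recurred in both dCas9-p300(core) Pool 1 lists and in no list without Pool 1 gRNAs. MMP17-2 had an H3K27ac peak in dCas9-p300(core) Pool 1 replicate 2 and in dCas9-VP16(10x) Pool 2 replicate 2, and no RNAPII peak in another list. FHL2-3 had none elsewhere, and HES2-2 had H3K27ac peaks in 3 other dCas9-VP16(10x) lists.

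**Figure D4:**
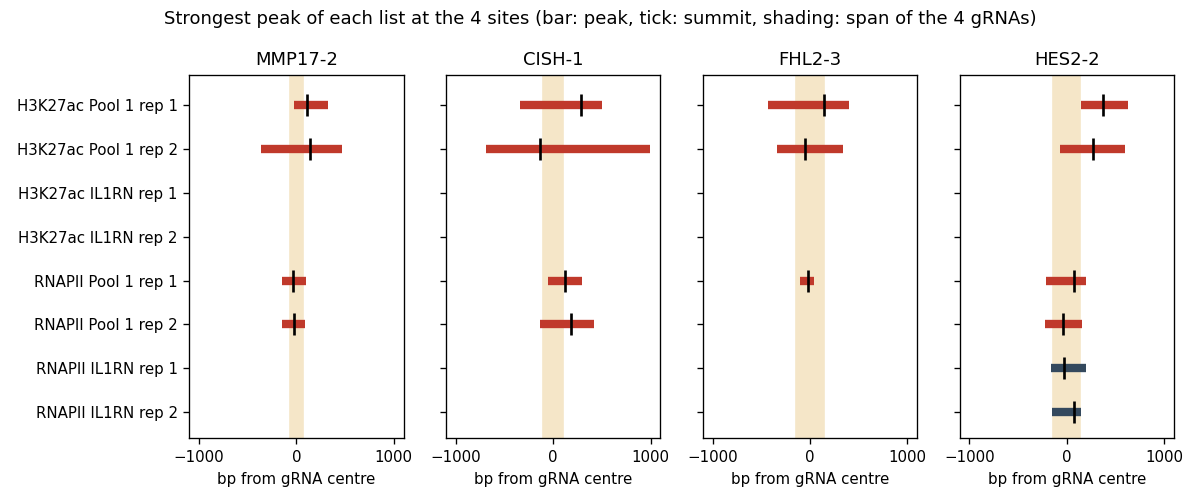
Position of the strongest peak of each list at the 4 sites, in bp from the middle of the gRNA span, with a bar for the peak, a tick for its summit and shading for the gRNA span. Pool 1 peaks are red and IL1RN peaks blue, and the only IL1RN peaks shown are RNAPII at HES2-2.

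Binding of the fusion itself was measured with an antibody to its HA tag, although for Pools 1, 2 and 3 together. In the ERBS libraries, the normalized HA signal (on a scale of its own) was 23.8 in replicate 2 and 7.69 in the column without a number at MMP17-2, against 0.406 in the IL1RN library. At CISH-1 it was 43.1 and 12.9 against 1.52, at FHL2-3 2.66 and 2.55 against 0.279, and at HES2-2 7.60 and 4.51 against 0.431. Both ERBS columns were highest at CISH-1 and lowest at FHL2-3 among the 4 sites, and they are given as values of 2 columns and not as replicates. The IL1RN library was also highest at CISH-1 and lowest at FHL2-3, so this is an order of levels and not of ratios to the control. By peak fold enrichment, FHL2-3 (43.0) was above HES2-2 (23.8) in ERBS replicate 1 and below it in replicate 2 (25.4 and 98.7). HA peaks overlapped all 4 sites in both ERBS lists, and they also overlapped CISH-1 in the IL1RN list (fold enrichment 10.4) and MMP17-2, CISH-1 and HES2-2 in the list of adjacent replicate 2 (10.6, 19.4 and 7.65). At the IL1RN promoter HA was 19.3 in the IL1RN library and 0.745 and 0.777 in the ERBS columns.

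Across the genome, the 4 H3K27ac lists (16463 to 28585 peaks each) merged into 28609 regions, of which 249 were in both Pool 1 lists and neither IL1RN list (0.870%) and none in both IL1RN lists and neither Pool 1 list (0%). Lists followed replicate numbers more than gRNAs, since 2636 regions were in the lists of replicate 1 only and 6004 in those of replicate 2 only, while 10064 were in all 4. The 4 RNAPII lists (29987 to 35592 peaks) merged into 41889 regions, with 866 in both Pool 1 lists and neither IL1RN list (2.07%) and 2480 the other way (5.92%). The count was thus larger for the IL1RN lists, which are those of the pair counted as 1 sample. These counts moved by over 1.5 times without most single lists. The 249 became 3310 without Pool 1 replicate 1, 1893 without Pool 1 replicate 2, 1901 without IL1RN replicate 1 and 2679 without IL1RN replicate 2, because fewer lists then had to hold or lack the peak. The 866 became 6284, 2541 and 1760 without the first 3 of these lists.

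Most of the Pool 1 peaks were also found in libraries with other gRNAs. Of the 249 H3K27ac regions, 247 were in 1 or more of the 6 other dCas9-VP16(10x) lists, and the median region was in 4 of the 16 other H3K27ac lists. FHL2-3 was the 1 region in no other list, and with CISH-1 it was 1 of 2 in no list without Pool 1 gRNAs. Of the 866 RNAPII regions, 126 (14.5%) were in no other list, beside 215 of the 2480 in the other direction (8.67%), and 133 were in no list without Pool 1 gRNAs. Of those 133, 7 were in a dCas9-p300(core) Pool 1 list and 1, CISH-1, in both. Ranked by mean fold enrichment in the Pool 1 lists, CISH-1 was first of the 866 RNAPII regions at 21.0, and MMP17-2 was 11th at 11.7. Of the 249 H3K27ac regions, HES2-2 was first at 17.3, CISH-1 4th at 16.0, MMP17-2 8th at 14.3 and FHL2-3 138th at 8.17. Since FHL2-3 and HES2-2 were chosen on H3K27ac, their recurrence and ranks for H3K27ac are a description. Only those of CISH-1 and MMP17-2 are free of that choice.

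**Figure D5:**
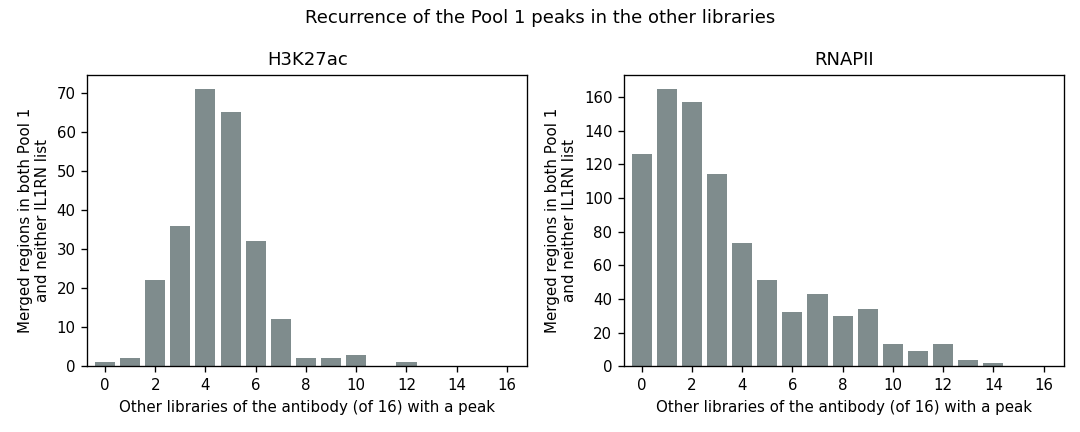
Number of merged regions found in both Pool 1 lists and neither IL1RN list (y axis), by how many of the 16 other lists of the antibody also hold a peak there (x axis), H3K27ac on the left and RNAPII on the right. For H3K27ac the most frequent number was 4 lists (71 regions) and 1 region was in none, while for RNAPII it was 1 list (165 regions) and 126 were in none.

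The H3K27ac regions of the Pool 1 kind had a median fold enrichment of 8.39, beside 29.0 for those in all 4 lists. This is a description, since fold enrichment is not independent of the presence of a peak in a list. Of the 249 H3K27ac regions 41.8% were within 1 kb of a coding gene start, against 79% of those in all 4 lists, with a median width of 455 bp against 1398 bp. For RNAPII it was 27.1% of the Pool 1 regions and 29.6% of the IL1RN regions, against 68.8% of those in all 4 lists. A small number lay near the targets. Within 10 kb of HES2-2, 5 of 13 merged H3K27ac regions were of the Pool 1 kind, strung along ESPN, with 2 at the site itself (mean fold enrichment 13.7 and 17.3) and the next at chr1:6499654-6499965, chr1:6500064-6500541 and chr1:6503791-6504367 (8.64, 13.1 and 14.5). Each of the 5 was also in 1 to 4 other lists, and they are a description, since HES2-2 was chosen on H3K27ac. The RNAPII region at chr1:6499478-6499744 in ESPN, 10th of 866 with fold enrichment 12.9 and 10.7, was in no other list. Within 10 kb of the HES2 promoter, 4 of 10 RNAPII regions were of the Pool 1 kind. They included 3 at lower coordinates, in or near HES2, with mean fold enrichment of 4.44 to 6.94. Each of the 4 was also in 1 to 3 lists with other gRNAs, and they ranked 582 to 858 of 866. The region at MMP17-1 (7.78 and 7.95) was in 5 other lists.

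Of the 15 coding genes with a start within 100 kb of a site, ESPN had a Pool 1 peak of both antibodies within 1 kb of a start and HES2 one of RNAPII, beside 0.566% of 20149 coding genes for H3K27ac and 1.13% for RNAPII. The H3K27ac peak over an ESPN start at chr1:6497212-6497904 is that of HES2-2 itself. That site was chosen on H3K27ac, so nothing is read from the H3K27ac result at ESPN. PLEKHG5, a guanine nucleotide exchange factor near HES2, had an RNAPII peak of the IL1RN kind (3.54% of coding genes). ESPN, HES2 and PLEKHG5 each also had peaks of both antibodies within 1 kb of a start in all 4 lists, controls included. The CISH and FHL2 promoter regions had H3K27ac peaks in both Pool 1 lists and in 1 of the 2 IL1RN lists, and RNAPII peaks in all 4 lists, while the MMP17 promoter region had no peak of either antibody in any of the 4.

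Farther than 5 kb from the table's regions, the strongest H3K27ac regions of the Pool 1 kind included starts of WDR45, an autophagy protein (fold enrichment 23.9 and 8.93), BIN1, a membrane-shaping protein (18.0 and 14.6), TAF9B, a TFIID subunit (17.8 and 10.5), and KIAA1586 (16.1 and 10.4). Others did not overlap a coding start and were 1.95 kb from HOXD12, a homeobox gene (20.9 and 8.15), 0.673 kb from GAL3ST2, a sulfotransferase (13.03 and 13.3), 11.6 kb from NRARP, a Notch regulator (22.3 and 5.81), 13.6 kb from BAIAP2 (16.9 and 10.8) and 54.9 kb from HS6ST1 (20.6 and 8.56). All 9 were in 3 to 10 other lists, with WDR45 in the most and GAL3ST2 in the fewest. Pool 1 replicate 1 was the higher in 8 of them.

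For RNAPII, the strongest regions elsewhere were 6.03 kb from ZNF764 (9.28 and 17.2), 2.49 kb from ZNF397 (9.65 and 15.5), at a start of PCOLCE, a procollagen processing factor (11.9 and 13.3), and a pair 12.3 and 10.5 kb from MEOX1, a homeobox gene (9.64 and 14.9, and 11.9 and 12.0). Further ones were 7.40 kb from ENTPD2 (13.4 and 11.1), 4.78 kb from ARL16 (8.80 and 15.2), at a start of GSK3A, a kinase (9.42 and 13.8), and at a start of PRKG2, a cyclic GMP-dependent kinase (10.7 and 11.9). They were in 1 to 9 other lists. PRKG2 was the one whose only other list was a dCas9-p300(core) Pool 1 list. In the other direction, the 5 strongest RNAPII regions of both IL1RN lists had mean fold enrichment of 17.2 to 25.1, above the highest of the 9, and were nearest to NID1 (32.0 kb), HLA-G (17.6 kb), ZBTB16 (2.40 kb), HSPA6, a heat shock protein gene (0.491 kb), and CALCA (9.25 kb). They were in 1 to 11 other lists.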

How the data were processed

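ChIP-seq reads were aligned to hg19 with Bowtie 1.1.2, duplicates were removed with SAMtools, and reads in each region were counted with bedtools, per the labels and the methods. The table deposited by the authors holds, for 23 regions, a signal normalized to total read depth and to the average depth within shared peaks of the antibody. The peak lists deposited by the authors (MACS2 2.1.0.20140616 is named in the submitters' processing notes) hold, for each library, the fold enrichment of a peak over background and its −log10 p-value, with a lowest −log10 p of about 10.

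Groups were taken from the labels. The signal was log2 transformed after a pseudocount was added, namely 0.00415 for H3K27ac and 0.00395 for RNAPII, the smallest positive value of each. A linear model (limma 3.58.1, R 4.3.3) took in all 20 H3K27ac libraries and 19 of RNAPII, where the IL1RN pair was averaged, with 1 mean per construct and pool, and Benjamini-Hochberg adjustment covered 23 regions (threshold 0.05). Residual degrees of freedom were 10 and 9. Log2 changes are on the log2(signal + pseudocount) scale and understate changes of low signals. Exact permutation tests used SciPy 1.17.1. Peaks of the 4 lists of an antibody were merged where they shared a base. Genes came from GENCODE v44 lifted to hg19, and gRNAs were located with pysam 0.24.0. The fit was also run on simulated data with independent noise between libraries and with the RNAPII IL1RN pair not averaged. Those settings differ from the reported fits, and nothing is read from that run. Read numbers give counting error only.

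Sites, members and gene lists were chosen with earlier results of these data known. The regions named are the 23 of the table, the 10 Pool 1 regions of each antibody with the highest mean fold enrichment more than 5 kb from them, and 5 such RNAPII regions of the IL1RN kind. Peaks on chromosome 8 are not described here, which leaves 9 of each 10. Alternatives were other pseudocounts, a further scaling, a filter on low reads, other libraries in the fit or as control, blocks by replicate number or by the number in peak names, leaving out libraries, and stricter or looser peaks. The block by the number in peak names, the handling of the IL1RN pair and the blocks in 4 libraries were added after the data were seen.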

Additional observations from a re-analysis of the deposited data

Results flagged for a closer look

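Signal outside the main comparison was present at the Pool 1 sites in the dCas9-p300(core) libraries, whose fusion carries the acetyltransferase core of p300. For H3K27ac, both dCas9-p300(core) Pool 1 libraries were above both dCas9-p300(core) IL1RN libraries at all 4 sites, the lower of the pair being at 0.457 for MMP17-2, 1.09 for CISH-1, 0.589 for FHL2-3 and 0.619 for HES2-2. The higher control library was at 0.320, 0.522, 0.253 and 0.354. FHL2-3 and HES2-2 were chosen on H3K27ac, so their H3K27ac order here is a description. Only that of MMP17-2 and CISH-1 is free of that choice. For RNAPII the same order was seen at CISH-1, where the lower Pool 1 library was at 0.420 and the higher control library at 0.129, and at FHL2-3, where they were at 0.0410 and 0.0404 and thus hardly apart. RNAPII at MMP17-2 and HES2-2 overlapped between the groups. How many of the other regions had both Pool 1 libraries above both IL1RN libraries was not counted for dCas9-p300(core). The difference between the 2 constructs was not tested.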

How the results depend on the processing

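Of 320 values under alternatives, 238 kept their direction and side of the threshold, or stayed within 1.5 times for counts. None of the log2 changes among them reversed, while a count has no direction to reverse. For H3K27ac, 0 of 23 regions were higher (0 of the 4 sites) with only dCas9-VP16(10x) libraries in the fit, and also 0 with adjustment over 46 tests. With only the 4 Pool 1 and IL1RN libraries 1 region, the IL1RN promoter, was lower, and MMP17-2 lost its call. With the replicate block over all 20 libraries 3 regions were higher, with the number in the peak names as a block the IL1RN promoter, 1 region, was lower, and with the replicate block in the 4 libraries 6 were higher and 1, the IL1RN promoter, was lower. These 6 were MMP17-1, CISH-3 and 4 sites, of which FHL2-3 and HES2-2 were chosen on this signal, so that nothing is read from their calls. Replicate numbers shared deviations between Pool 1 and IL1RN for H3K27ac (r = 0.94 over 23 regions) and not for RNAPII (r = -0.42), where the crossed block gave 0 calls and the replicate block with the pair as 2 libraries gave 1. RNAPII calls of higher signal, 0 as reported, became 1 with only dCas9-VP16(10x) libraries, 1 with the IL1RN pair as 2 libraries and 2 with all other dCas9-VP16(10x) libraries as control, each at 1 or 2 of the 4 sites. Leaving out 1 library gave 0 to 2 higher and 0 lower for H3K27ac, 0 for RNAPII, and 2 to 4 sites of 4 with Pool 1 above all others for H3K27ac. Dividing each library by its median moved the median H3K27ac change from 0.61 to -0.30 and that of RNAPII from -0.11 to 0.09, so the sign of small changes at other regions depends on the scaling, while the H3K27ac changes at MMP17-2 and CISH-1 were 2.73 and 4.37.

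H3K27ac peaks were at 2 of 4 sites by the labels' list, and RNAPII peaks at 1 of 4 when a peak within 1 kb counted (2 to 3 leaving out a list). The 249 H3K27ac regions became 82 at a −log10 p of at least 20 in Pool 1, 77 with lists of equal length (21 in reverse), 2 when absent from all libraries without Pool 1 gRNAs, 5496 (541 in reverse) for replicate 1 alone and 6206 (940) for replicate 2 alone, and leaving out 1 list gave 1893 to 3310 (32 to 808). The 866 RNAPII regions (2480 in reverse) became 139 (899) at that threshold in Pool 1, 426 with it in every list, 391 (1442) with peaks joined within 1 kb, 133 when absent from libraries without Pool 1 gRNAs, 3598 (9444) and 8507 (9177) for replicates 1 and 2 alone, and 1205 to 6284 (3777 to 6318) leaving out 1 list. The edgeR test was not run, because the table could not be shown to hold whole reads. At 1 to 3 reads, as in IL1RN replicate 1, depth limits the size of H3K27ac changes.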

Other observations

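Other gene groups were read as peaks within 1 kb of a start. Of 20149 coding genes, 0.566% had an H3K27ac region of the Pool 1 kind there, 1.13% an RNAPII one, and 3.54% an RNAPII one of the IL1RN kind. Of 20 estrogen-responsive genes, which include the 4 targets, none had an H3K27ac region of the Pool 1 kind. For RNAPII 3 had one, namely XBP1, a transcription factor of the unfolded protein response, HES2, and ADORA1, an adenosine receptor. SIAH2, a ubiquitin ligase, had an RNAPII region of the IL1RN kind. XBP1, HES2, ADORA1 and SIAH2 each also had an RNAPII peak within 1 kb of a start in all 4 lists, controls included. These regions are thus separate from a peak that the lists share, and no gain at these genes is read from them. Among 10 epithelial markers, KRT8 and KRT18 had an RNAPII region of the Pool 1 kind, and CDH1 one of the IL1RN kind. Of 15 immediate early genes none had a Pool 1 region of either antibody, and EGR2 had an RNAPII region of the IL1RN kind. Of 15 interferon-stimulated genes none had a Pool 1 region, and ISG20 had an RNAPII region of the IL1RN kind beside an RNAPII peak in all 4 lists. None of the 9 genes of the interleukin-1 cluster had a region of either kind.

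HA peaks of dCas9-VP16(10x) overlapped 42 (16.9%) and 156 (62.7%) of the 249 H3K27ac regions in the ERBS lists of 6184 and 30740 peaks. They overlapped 43 (17.3%) in the IL1RN list of 8149 peaks, and 22 (8.84%) and 141 (56.6%) in the adjacent lists of 4785 and 25109 peaks. The overlap was thus higher for the longer lists with either set of gRNAs. For the 866 RNAPII regions it was 1.96% and 14.1% for the ERBS lists and 1.85% for the IL1RN list, beside 1.85% and 11.2% for the adjacent lists.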
